A study of Mus musculus with 20 samples.

Results

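The annexins and their S100 partners were examined in the livers of mice labelled OGTL WT or OGTL KO at 4 and 8 weeks of age. OGT is the O-GlcNAc transferase, which attaches N-acetylglucosamine to intracellular proteins, and KO and WT below mean these genotypes. The genes were Anxa1, Anxa2, Anxa3, Anxa4, Anxa5, Anxa6, Anxa7, Anxa11, S100a10 and S100a11, 10 of the 19505 genes with a symbol on the array. They were chosen by symbol, with the feature of highest mean over the 20 arrays to be kept where a symbol had several, and each of these genes had a single feature. The set was proposed with results of these arrays known, so the p-values below describe the arrays and give no independent support. RNA from snap-frozen, powdered liver of 5 mice per group was hybridised to Clariom S Mouse arrays, 1 array per sample, giving 4 groups and 20 arrays. The sources used here do not name the Cre driver or the sex of the mice. The question was how these genes differ between KO and WT liver at each age.

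Annexins are cytosolic proteins that bind acidic phospholipids when calcium rises, and they take part in membrane repair, vesicle traffic and the organisation of actin at membranes. Members of the S100 family bind the amino-terminal tail of certain annexins. S100A10 joins annexin A2 in a complex that gathers plasminogen and its activator at the cell surface, and S100A11 joins annexin A1. In healthy liver several annexins are low in hepatocytes and higher in bile duct, sinusoidal and immune cells.

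Values are log2 signals as deposited, where 1 unit is a 2-fold difference, and ± marks the SD of 5 arrays. A gene was called higher or lower where the limma p-value, adjusted by the Benjamini-Hochberg method over all 19505 genes, was below 0.05. Levels of different genes are not compared, because each gene has its own probes.

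The promoters of Anxa2, S100a11 and Anxa5 are shown because these genes had the largest KO-minus-WT differences of the set at 4 weeks. RefSeq windows were matched for 7 of the 10 genes, and Anxa3, Anxa6 and S100a10 had none. Each run is the 250 bases before the annotated start in GRCm38.p6, written 5′ to 3′ on the gene's strand. Anxa2 lies at chr9:69453433-69453682 on the plus strand, S100a11 at chr3:93520246-93520495 on the plus strand, and Anxa5 at chr3:36475888-36476137 on the minus strand. Capitals mark matches to TGAGTCA, the letters bound by AP-1, searched on both strands.
Anxa2: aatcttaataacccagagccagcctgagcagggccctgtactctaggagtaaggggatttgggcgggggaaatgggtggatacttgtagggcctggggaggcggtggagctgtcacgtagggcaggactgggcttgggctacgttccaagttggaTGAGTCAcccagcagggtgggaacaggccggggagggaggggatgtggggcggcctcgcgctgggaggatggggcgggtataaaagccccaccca
S100a11: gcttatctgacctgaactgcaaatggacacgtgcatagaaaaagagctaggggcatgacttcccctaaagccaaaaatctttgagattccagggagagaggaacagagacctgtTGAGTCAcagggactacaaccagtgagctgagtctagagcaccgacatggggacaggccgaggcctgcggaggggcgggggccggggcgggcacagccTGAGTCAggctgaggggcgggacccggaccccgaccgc
Anxa5: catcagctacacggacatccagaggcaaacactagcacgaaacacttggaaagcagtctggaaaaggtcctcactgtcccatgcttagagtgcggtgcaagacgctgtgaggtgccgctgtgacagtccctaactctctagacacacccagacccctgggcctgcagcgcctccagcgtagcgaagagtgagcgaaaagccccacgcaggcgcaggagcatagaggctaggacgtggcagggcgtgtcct

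The Anxa2 window holds 1 match, 95 to 89 bases before the start. The S100a11 window holds 2, at 136 to 130 and at 38 to 32 bases before the start. The Anxa5 window has no run of these letters, nor of the antioxidant response element letters TGACNNNGC. Of 32851 mouse windows of this length, 4.46% hold TGAGTCA and 0.167% hold it at least 2 times. A match of letters is a description of sequence. S100a11, S100a10 and Anxa5 are on chromosome 3, and Anxa7 and Anxa11 are on chromosome 14.

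The targeted gene, Ogt, read 9.37, 9.87, 9.83, 9.65 and 9.14 in WT at 4 weeks and 7.37, 8.30, 8.13, 8.84 and 8.07 in KO. That difference was -1.43 (SE 0.20, limma adjusted p = 8.82e-05). At 8 weeks the arrays labelled KO read 9.55 to 10.01 and WT 9.84 to 10.33, and the difference of -0.27 was not called (limma adjusted p = 0.529). The label KO at 8 weeks was therefore not matched by a called fall in Ogt signal. In KO, Ogt was higher at 8 than at 4 weeks by 1.67 (limma adjusted p = 9.46e-06), without overlap. The change of the KO-minus-WT difference between the ages was called (1.16, limma adjusted p = 0.0307), and that call was lost in 7 of 27 alternative fits. Skeletal muscle transcripts were high on 3 arrays, WT replicate 4, KO replicate 4 and KO replicate 5 at 4 weeks. Their Acta1 signals were 15.89, 15.04 and 15.43, against 4.24 to 6.11 on the other arrays. Called results of the 10 genes that rest on these 3 arrays are also given without them. A call of another gene, cell type markers excepted, that was lost without them is named as such. Calls of marker genes were not refitted without these arrays. Of the hepatocyte markers 9 of 10 were measured and all 9 were above background in every group. All but Hnf4a had group means above 16, the scanner's ceiling on this scale, so the sizes of their differences are uncertain. At 4 weeks all 9 had a mean below WT in KO and 1 was called lower, Cyp2e1 (-0.60, limma adjusted p = 0.0120), and at 8 weeks none was called. No pair of arrays held identical values.

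At 4 weeks, Anxa5 and Anxa2 were higher and Anxa11 was lower in KO liver. At 8 weeks, 5 of the 10 genes were higher, namely S100a11, Anxa2, Anxa5, Anxa3 and Anxa1, and none was lower. Over all genes tested, 4.7% were called higher and 5.48% lower at 4 weeks, and 4.94% were called higher and 1.65% lower at 8 weeks. The median difference over the 10 genes was 0.66 at 4 weeks and 0.94 at 8 weeks (0.83 with Anxa1 at its lower limit, given below), against 0.002 and -0.036 over all genes. Both comparisons use bulk liver, in which more cells of a type and more RNA per cell cannot be told apart.

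**Figure D1:**
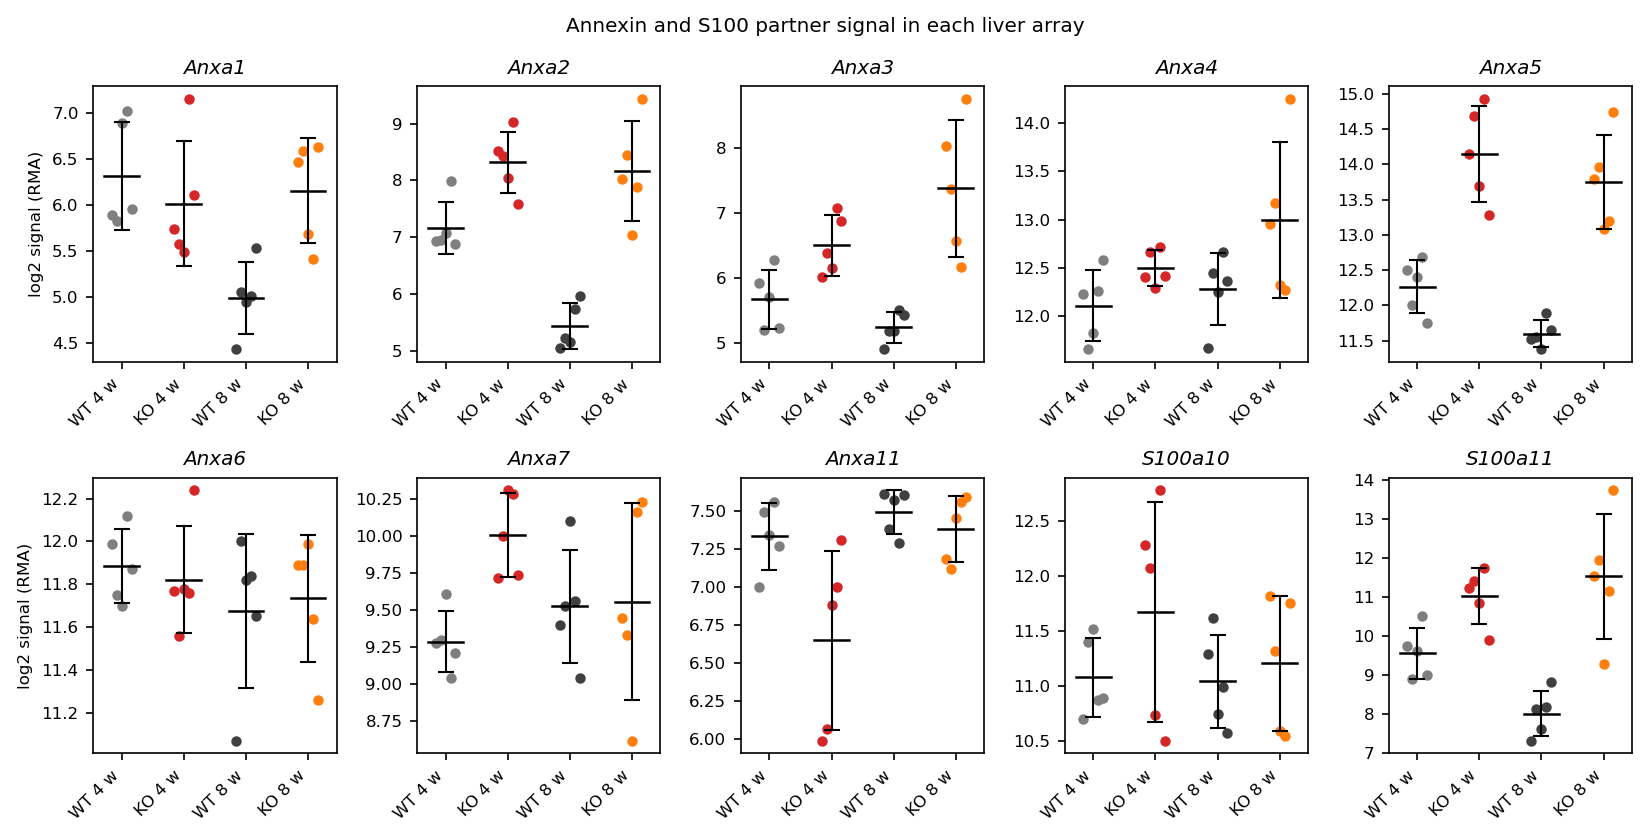
Log2 signal (vertical axis, own scale for each gene) of the 10 genes in WT and KO liver at 4 and 8 weeks. Points are single arrays, long bars are group means and whiskers are SDs, with 5 arrays per group. All KO points lie above all WT points of the same age for Anxa5 at both ages, for Anxa7 at 4 weeks, and for Anxa2, Anxa3 and S100a11 at 8 weeks.

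Annexin A2, the annexin that forms the surface complex with S100A10, was higher in KO at both ages. At 4 weeks Anxa2 read 6.94, 6.95, 7.08, 7.98 and 6.88 in WT and 8.52, 8.42, 8.04, 9.02 and 7.58 in KO. The KO arrays were the higher ones except that KO replicate 5 lay below WT replicate 4, so the groups overlapped. The difference was 1.15 (SE 0.34, limma adjusted p = 0.0343; exact permutation p = 0.0159). The call was lost when any one of 7 arrays was left out (WT replicates 1, 2, 3 and 5, KO replicates 1, 2 and 4), with adjusted p from 0.0671 to 0.0940, and without the 3 muscle arrays it stood, at 1.36 (limma adjusted p = 0.0244).

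At 8 weeks Anxa2 read 5.05, 5.23, 5.15, 5.74 and 5.97 in WT and 8.02, 8.44, 7.03, 7.88 and 9.44 in KO. The lowest KO array lay 1.06 above the highest WT array. The difference was 2.73 (SE 0.34, limma adjusted p = 2.79e-05), a signal 6.65-fold that of WT, and the exact permutation p of 0.00794 is the smallest that 5 against 5 arrays can give. The WT mean of Anxa2, 5.43, was close to the background level of 5.20, so that size is uncertain.

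S100a10, which encodes the partner of annexin A2, was not called at either age. It read 10.70, 11.40, 11.52, 10.87 and 10.89 in WT and 12.28, 12.07, 10.73, 12.78 and 10.50 in KO at 4 weeks. In KO, 3 arrays lay above every WT array and 2 lay within or below the WT range, which gave an SD of 1.0 against 0.36 in WT. The difference was 0.60 at 4 weeks (95% interval -0.17 to 1.36, limma adjusted p = 0.374) and 0.16 at 8 weeks (interval -0.60 to 0.93, limma adjusted p = 0.870). At 8 weeks the arrays read 10.57 to 11.62 in WT and 10.54 to 11.82 in KO.

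The difference in Anxa2 exceeded that in S100a10 by 2.57 at 8 weeks (exact permutation p = 0.00794, adjusted p = 0.0159 over 4 such tests) and by 0.55 at 4 weeks (exact permutation p = 0.190). The 4 tests set the KO-minus-WT difference of an annexin against that of its partner for both pairs at both ages, and they were added after the values had been seen.

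S100A11, the calcium-binding partner of annexin A1, had the largest difference of the set at 8 weeks. S100a11 read 7.31, 8.12, 7.60, 8.17 and 8.82 in WT and 11.55, 11.96, 9.27, 11.16 and 13.75 in KO. Every KO array lay above every WT array, while the KO arrays spread over 4.48 units between the lowest and the highest. The difference was 3.53 (SE 0.55, limma adjusted p = 2.77e-04), or 11.6-fold, and ranked 19 from the top among 19505 genes.

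At 4 weeks S100a11 read 9.74, 8.90, 9.62, 10.52 and 9.01 in WT and 11.23, 11.41, 10.84, 11.76 and 9.90 in KO. In KO, 4 of 5 arrays lay above the whole WT range. The difference of 1.47 (95% interval 0.33 to 2.61) was not called (limma adjusted p = 0.100), and it was called when only the arrays of 4 weeks were fitted (adjusted p = 0.0229) and with array weights (adjusted p = 0.0316). Without the 3 muscle arrays it was 1.84 and not called (limma adjusted p = 0.0779).

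Annexin A1, which restrains inflammation through formyl peptide receptors, showed another pattern. Anxa1 read 5.89, 5.83, 6.89, 7.02 and 5.96 in WT and 5.74, 5.58, 5.49, 7.16 and 6.11 in KO at 4 weeks, with broadly overlapping groups. The difference was -0.30 (95% interval -0.98 to 0.37, limma adjusted p = 0.669). At 8 weeks it read 4.43, 5.05, 4.94, 5.01 and 5.53 in WT and 6.47, 6.59, 5.68, 5.41 and 6.63 in KO. Here 1 KO array lay below the highest WT array and the other 4 lay above it.

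The WT mean of Anxa1 at 8 weeks, 4.99, was not above the background level of 5.20, so Anxa1 was higher in KO by at least 0.96 (limma adjusted p = 0.0312 for the measured difference of 1.16). That call was lost when any one of 7 arrays was left out (WT replicates 1 to 4 and KO replicates 1, 2 and 5 at 8 weeks), with adjusted p from 0.0558 to 0.0906. At 4 weeks the difference in Anxa1 was smaller than that in S100a11 by 1.77 (exact permutation p = 0.0159, adjusted p = 0.0212 over the 4 tests). At 8 weeks no such comparison is given, since the difference in Anxa1 is a lower limit.

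Annexin A5, widely used as a probe for phosphatidylserine on dying cells, was higher in KO at both ages, and neither call was lost under any alternative fit run. Anxa5 read 12.50, 12.01, 12.40, 12.68 and 11.75 in WT and 14.14, 14.68, 13.69, 14.93 and 13.28 in KO at 4 weeks. The lowest KO array was 0.60 above the highest WT array. The difference was 1.88 (SE 0.30, limma adjusted p = 2.91e-04), or 3.67-fold. Without the 3 muscle arrays it was 2.0 (limma adjusted p = 5.14e-04).

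At 8 weeks Anxa5 read 11.52, 11.55, 11.38, 11.90 and 11.65 in WT and 13.79, 13.96, 13.08, 13.20 and 14.74 in KO. WT arrays lay within 0.52 of each other and the gap to the lowest KO array was 1.18. The difference was 2.15 (SE 0.30, limma adjusted p = 8.64e-05), or 4.45-fold. The difference between the ages, 0.28, had a 95% interval of -0.60 to 1.16.

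Annexin A3, an annexin abundant in neutrophils, was called at 8 weeks. Anxa3 then read 4.91, 5.19, 5.19, 5.51 and 5.43 in WT and 8.02, 7.37, 6.57, 6.17 and 8.75 in KO. The groups did not overlap, and the SD was 1.05 in KO and 0.24 in WT. The difference was 2.13 (SE 0.36, limma adjusted p = 6.21e-04), or 4.38-fold. The WT mean, 5.25, was close to the background level of 5.20, so this size is uncertain. At 4 weeks Anxa3 read 5.21 to 6.28 in WT and 6.01 to 7.08 in KO, and the difference of 0.83 was not called (limma adjusted p = 0.164). None of the 9 measured neutrophil markers was called at either age, and all 9 were not above background at 8 weeks. At 4 weeks Retnlg was above background in WT alone and Cxcr2 in KO alone, and the other 7 were above it in neither.

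Annexin A4, which is prominent in secretory epithelia, was not called at either age. Anxa4 read 11.67, 12.45, 12.25, 12.67 and 12.37 in WT and 12.95, 13.17, 12.32, 12.27 and 14.25 in KO at 8 weeks. In KO, 3 arrays lay above the WT range and 2 within it. The difference was 0.71 (95% interval 0.12 to 1.30, limma adjusted p = 0.159), and without KO replicate 5 it was 0.40 (limma adjusted p = 0.392). At 4 weeks it was 0.39 (95% interval -0.20 to 0.98, limma adjusted p = 0.477).

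Annexin A11, which tethers RNA granules to lysosomes, was the only one of the 10 genes called lower in KO at either age. At 4 weeks Anxa11 read 7.0, 7.49, 7.34, 7.56 and 7.27 in WT and 5.99, 6.07, 6.88, 7.0 and 7.31 in KO. Of the KO arrays, 3 lay below the WT range, 1 at its lower edge and 1 within it. The difference was -0.68 (SE 0.20, limma adjusted p = 0.0368). That call was lost when any one of 6 arrays was left out (WT replicates 2, 3, 4 and 5, KO replicates 1 and 2), with adjusted p from 0.0616 to 0.119, and when only the arrays of 4 weeks were fitted (adjusted p = 0.110).

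The KO arrays with the highest Anxa11 signal at 4 weeks, 7.0 and 7.31, were the 2 with muscle transcripts. Without the 3 muscle arrays the difference was -0.96 (limma adjusted p = 0.00515). At 8 weeks Anxa11 read 7.29 to 7.61 in WT and 7.12 to 7.59 in KO, a difference of -0.11 (95% interval -0.54 to 0.32, limma adjusted p = 0.834).

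Annexin A7, also known as synexin, was not called at either age. At 4 weeks Anxa7 read 9.28, 9.30, 9.61, 9.04 and 9.21 in WT and 9.72, 10, 10.31, 10.28 and 9.74 in KO. The groups did not overlap, as was the case with KO higher for 4.06% of all genes at 4 weeks and 4.13% at 8 weeks. The difference of 0.72 (95% interval 0.21 to 1.24) was not called (limma adjusted p = 0.0682), though it was when only the arrays of 4 weeks were fitted (adjusted p = 0.0137). At 8 weeks it was 0.03 (interval -0.48 to 0.54) and turned negative, to -0.08, when array medians were set equal.

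Annexin A6, a membrane and cholesterol-trafficking annexin, was not called in any comparison. Anxa6 ranged from 11.70 to 12.12 in WT and 11.56 to 12.24 in KO at 4 weeks, and from 11.07 to 12 and 11.26 to 11.99 at 8 weeks. The differences were -0.06 (95% interval -0.43 to 0.30) and 0.06 (interval -0.31 to 0.42), and the first became 0.02 when quantile normalization was repeated and the second -0.06 with array medians set equal. These were the narrowest intervals of the set.

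**Figure D2:**
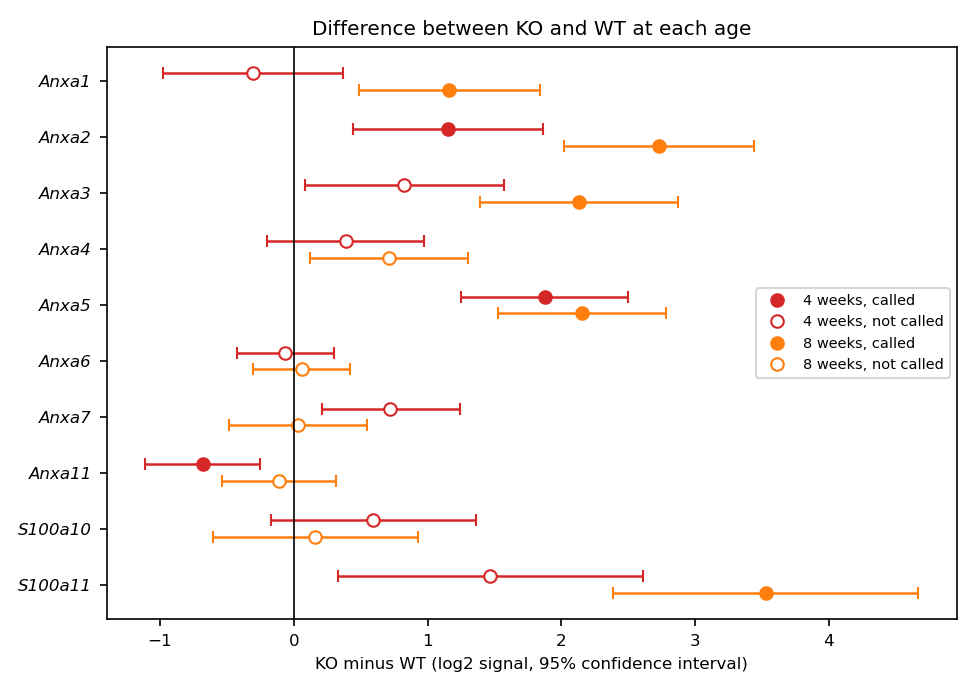
KO-minus-WT difference in log2 signal (horizontal axis) for each gene at 4 weeks (red) and 8 weeks (orange), with 95% confidence intervals from limma. Filled points were called at an adjusted p below 0.05. S100a11 at 8 weeks lies farthest right, at 3.53, and Anxa11 at 4 weeks farthest left, at -0.68.

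In WT livers Anxa2 and Anxa1 were lower at 8 than at 4 weeks. Anxa2 fell by 1.74 with age in WT (SE 0.34, limma adjusted p = 0.00177), and all WT arrays of 8 weeks lay below all those of 4 weeks. Its WT mean at 8 weeks, 5.43, was close to the background level of 5.20, so the size of this fall is uncertain. Anxa1 fell by at least 1.12 in WT (limma adjusted p = 0.0107 for the measured -1.33), again without overlap. Among all genes, 5.23% were called lower and 3.71% higher with age in WT. The difference of S100a11, -1.55, was not called (limma adjusted p = 0.0837), and its groups did not overlap either. The share of all genes without overlap between the ages was not counted. Without the 3 muscle arrays, of which 1 is WT at 4 weeks, the called differences were -1.53 for Anxa2 (limma adjusted p = 0.00470) and -1.15 as measured for Anxa1 (limma adjusted p = 0.0120).

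In KO livers the same genes were not called with age. The differences were -0.15 for Anxa2 (95% interval -0.86 to 0.56), 0.14 for Anxa1 (interval -0.53 to 0.81) and 0.51 for S100a11 (interval -0.63 to 1.65). The first turned positive, to 0.02, without KO replicate 4 of 4 weeks, and the last negative, to -0.04, without KO replicate 5 of 8 weeks. Anxa11 was the 1 member called in KO, higher at 8 weeks by 0.73 (SE 0.20, limma adjusted p = 0.0189), against 7.85% of genes called higher and 6.78% lower. That call was lost without KO replicate 1 of 4 weeks (adjusted p = 0.0622), without KO replicate 2 of 4 weeks (adjusted p = 0.0648), and when the KO groups alone were fitted (adjusted p = 0.0774), and without the muscle arrays the difference was 1.07 (limma adjusted p = 0.00101).

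**Figure D3:**
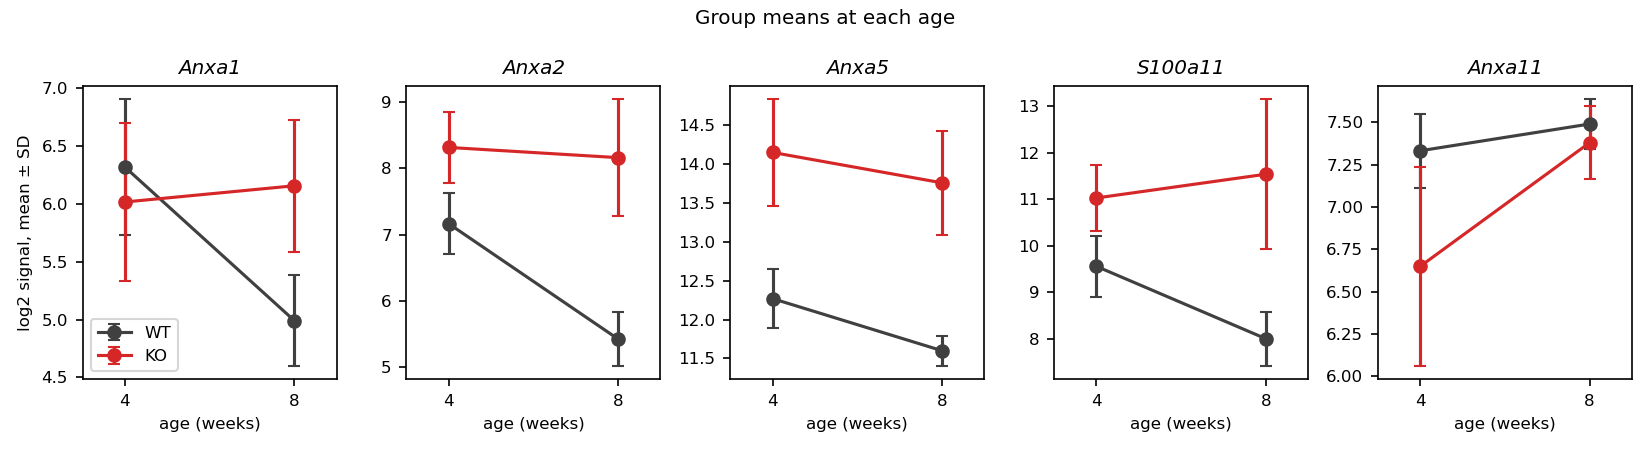
Group mean ± SD of log2 signal (vertical axis, own scale for each gene) at 4 and 8 weeks for WT (grey) and KO (red), 5 arrays per point, with different mice at each age. For Anxa2 the WT line drops by 1.74 while the KO line changes by -0.15, and for Anxa11 the KO line climbs by 0.73.

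Whether the KO effect itself differed between the ages was tested as the difference at 8 weeks minus that at 4 weeks. None of the 10 genes was called in this limma test, while 2.05% of all genes were called higher and 1% lower. At an unadjusted p below 0.05, 4 of the 10 were higher, namely Anxa2, Anxa1, S100a11 and Anxa3, as were 8.91% of all genes. The values were 1.58 for Anxa2 (limma adjusted p = 0.0806), 1.47 as measured for Anxa1 (adjusted p = 0.0889), 2.06 for S100a11 (adjusted p = 0.172) and 1.30 for Anxa3 (adjusted p = 0.188). All values of Anxa1 here rest on the WT mean at 8 weeks, which was not above background. Those of Anxa2 and Anxa3 rest on WT means at 8 weeks that were close to background. Without the 3 muscle arrays Anxa1 was called, at 1.70 as measured (adjusted p = 0.0297). Without KO replicate 3 of 8 weeks, Anxa2 (1.87, adjusted p = 0.0206) and S100a11 (2.63, adjusted p = 0.0226) were called, and Anxa1 was called without KO replicate 4 of 4 weeks (1.75, adjusted p = 0.0227) or of 8 weeks (1.65, adjusted p = 0.0481).

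The SD in KO over that in WT had a median of 1.27 over the 10 genes at 4 weeks (range 0.50 to 2.77) and of 1.94 at 8 weeks (range 0.82 to 4.45), beside 1.07 and 1.08 over all genes. At 8 weeks KO replicate 5 was the highest of its group for 8 of the 10 genes, all but Anxa6 and S100a10. How many of all genes were highest on that array was not counted. That array read 9.44 for Anxa2, 14.74 for Anxa5 and 13.75 for S100a11. Without it the differences at 8 weeks were 2.42 for Anxa2 (limma adjusted p = 5.56e-05), 1.91 for Anxa5 (adjusted p = 2.39e-04), 1.79 for Anxa3 (adjusted p = 0.00126) and 2.98 for S100a11 (adjusted p = 4.59e-04).

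Markers of bile duct and ductular cells moved with these arrays. Of 10 listed, 8 were measured. At 8 weeks 7 of the 8 were higher in KO, among them the keratins Krt7 (5.70 in WT, 8.03 in KO) and Krt19, and Epcam, and the eighth, Cftr, was not called (0.67). The mean of the 8 markers was 7.96, 8.29, 6.87, 7.23 and 9.48 in the 5 KO arrays in order of replicate, and 4.99 to 6.04 in WT. The order of the 5 KO arrays by that mean was also their order by Anxa2, by Anxa5 and by S100a11, and it differed from their order by the other 7 genes, among them Anxa1 and Anxa3. How many of all genes share that order was not counted, and the order by other marker lists was not compared. Summed over the 8 ductular markers, the log2 level at 8 weeks was 39.91 to 48.28 in WT and 54.97 to 75.88 in KO. Krt19, Epcam and Cldn7 were not above background in WT at that age.

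At 4 weeks 1 of the 8 ductular markers was higher in KO, the tetraspanin Tspan8. Their summed level was 45.32 to 54.45 in KO and 41.16 to 49.47 in WT, and Cldn7 was not above background in either group. KO replicate 5 had the lowest sum of the KO group and KO replicate 4 the highest, as they did for Anxa2, Anxa5 and S100a11. Both of these KO arrays carried skeletal muscle transcripts, whose part in this match was not tested. The order of the other KO arrays, which did not carry them, differed. KO replicate 3 lay above KO replicates 1 and 2 by the marker sum and below both for these genes. The part of these cells in the annexin differences was not tested.

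Some macrophage markers were higher at each age. At 4 weeks 5 of 12 measured were higher and none was lower, and their summed level was 108.43 to 111.66 in KO and 91.42 to 97.63 in WT. At 8 weeks 8 of 12 were higher and none was lower, with sums of 95.46 to 105.42 in KO and 85.13 to 88.98 in WT. The other 4 at 8 weeks were Marco (0.60, limma adjusted p = 0.585) and the Kupffer cell genes Clec4f (-0.68, limma adjusted p = 0.105), Vsig4 (-0.39, limma adjusted p = 0.480) and Cd5l (-0.04, limma adjusted p = 0.964). Trem2 was not above background in any group, and Gpnmb and Mmp12 were so only in WT. Stellate cell and fibroblast markers were called in 0 of 10 at 4 weeks and 6 of 10 at 8 weeks, all higher, among them Pdgfrb, Dcn and the collagens. The 4 not called at 8 weeks were Lrat (0.98, limma adjusted p = 0.0950), Reln (0.34, limma adjusted p = 0.4365), Acta2 (-0.53, limma adjusted p = 0.680) and Des. The sums of the 10 markers at 8 weeks were 89.20 to 102.42 in KO and 74.23 to 83.06 in WT, and Des was not above background in either group at that age. At 4 weeks their sums were 91.38 to 106.85 in KO and 87.55 to 104.95 in WT. The highest array of each group was then replicate 4, which carried skeletal muscle transcripts. Des, one of the listed markers, reached 12.15 in WT and 10.54 in KO at 4 weeks, against medians of 4.75 and 4.92. The part of muscle in these sums was not tested. The part of these cells was not tested either.

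**Figure D4:**
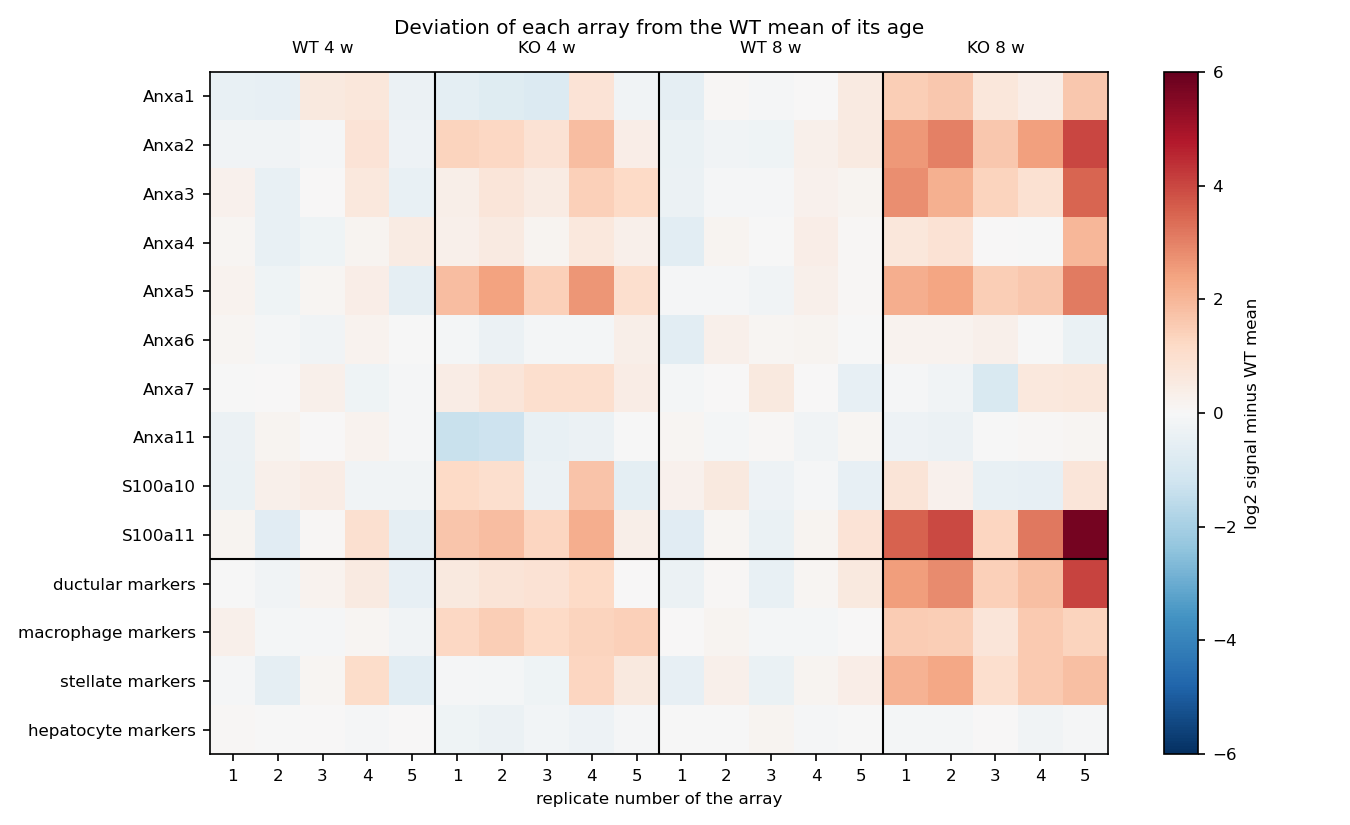
Deviation of each array (columns, by replicate number within group) from the WT mean of its age, in log2 units, for the 10 genes and, under the line, for the mean of 4 marker lists. Red is above and blue below the WT mean. KO replicate 5 at 8 weeks is the deepest red for Anxa2, Anxa5 and S100a11 as well as for the ductular markers.

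Among the annexins outside the set, Anxa13, an annexin of apical epithelial membranes, was higher in KO at 8 weeks. It read 5.12 to 5.49 in WT and 7.20 to 9.01 in KO. The difference was 2.95 (SE 0.30, limma adjusted p = 2.24e-06), without overlap. The WT mean at that age, 5.33, was close to the background level of 5.20, so this size is uncertain. At 4 weeks the difference was 0.74 (limma adjusted p = 0.123), and the difference between the ages was called (2.21, limma adjusted p = 0.00548). Anxa8, Anxa9 and Anxa10 were not called in any comparison, and Anxa8 and Anxa10 were not above background in any group.

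Of 14 other S100 genes, 2 were lower and none higher at 4 weeks, and none was called at 8 weeks. S100a1, a calcium sensor of muscle and other tissues, differed by -0.72 (limma adjusted p = 0.0378) and S100a16 by -0.75 (limma adjusted p = 0.0426) at 4 weeks. Each call was lost in 9 of 18 alternative fits, for S100a1 among them the fit without the 3 muscle arrays (limma adjusted p = 0.124). S100a8 and S100a9, the calprotectin subunits of myeloid cells, were not called at 8 weeks. S100a8 was not above background in WT, so no size is given, and S100a9 differed by 0.38 (limma adjusted p = 0.437). At that age 10 of the 14 genes were not above background in WT.

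The ligands and enzymes around these annexins were taken from lists of genes, of which called genes and those bearing on a member are named. Of 17 measured genes of annexin binding and membrane repair, 1 was called at each age, the ferlin Myof. Myof encodes myoferlin, a protein of membrane fusion and repair. It read 4.93 to 6.17 in WT and 6.66 to 7.27 in KO at 4 weeks, and 5.02 to 5.55 in WT and 7.33 to 9.73 in KO at 8 weeks. The differences were 1.32 (limma adjusted p = 0.00910) and 3.37 (limma adjusted p = 1.23e-06), and the change between the ages was called (2.06, limma adjusted p = 0.0156). The WT mean of Myof at 8 weeks, 5.25, was close to the background level of 5.20, so the sizes that rest on it are uncertain. The Myof relative Dysf was not called, at -0.09 and 0.11, and neither was Pdcd6, a binding partner of annexin A11, at 0.11 and -0.30.

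In plasminogen activation, the process served by the annexin A2 complex, 3 of 8 measured genes were lower at 4 weeks. These were Plg, plasminogen itself (-0.44, limma adjusted p = 0.0250), Serpinf2, the plasmin inhibitor of plasma (-0.84, limma adjusted p = 0.00171), and Hpn, the hepatocyte protease hepsin (-1.06, limma adjusted p = 5.83e-04). The call of Plg was lost in 8 of 18 alternative fits, among them that without the 3 muscle arrays (-0.34, limma adjusted p = 0.184). Plg had group means above 16, the scanner's ceiling on this scale, and Serpinf2 came close to it in WT at 4 weeks (15.93). The sizes of their differences are therefore uncertain. At 8 weeks Hpn was still lower (-0.81, limma adjusted p = 0.00788) and 3 genes were higher. Of these, the activator Plat read 5.94 ± 0.39 in KO and 4.53 ± 0.28 in WT, where it was not above background, so it was higher by at least 0.75. Plau and its receptor Plaur were called, but neither gene exceeded background in KO or WT, so their sizes are left out.

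Genes that expose or recognise phosphatidylserine, the lipid bound by annexin A5, were called higher in 2 of 15 at 4 weeks and in 5 of 15 at 8 weeks, and 1 was lower at 4 weeks. The scramblase Ano6, which moves this lipid to the outer leaflet, was higher at both ages, by 0.87 (limma adjusted p = 0.0352) and 1.88 (limma adjusted p = 7.97e-05). The receptor Axl was higher by 0.80 (limma adjusted p = 0.0434) and 1.76 (limma adjusted p = 9.84e-05). At 4 weeks the call was lost in 8 of 18 alternative fits for Ano6 and in 10 of 18 for Axl, including the fit without the 3 muscle arrays (0.86, limma adjusted p = 0.107, and 0.70, limma adjusted p = 0.134). At 8 weeks the bridging ligands Gas6 (3.07, limma adjusted p = 4.49e-05) and Mfge8 (2.99, limma adjusted p = 5.00e-05) and the integrin subunit Itgb5 (1.28, limma adjusted p = 2.17e-05) were also higher. Stab2, a scavenger receptor of sinusoidal endothelium, was lower at 4 weeks (-1.07, limma adjusted p = 0.00143) and was not called at 8 weeks (0.19). Of the 4 measured genes of eicosanoid release, which annexin A1 is known to restrain, Alox5ap was called, higher at 4 weeks by at least 0.69 (limma adjusted p = 0.0238). That call was lost in 6 of 18 alternative fits.

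The genes with array profiles most like 3 members were found from the mean absolute difference of profiles, each centred on its own mean over the 20 arrays. The members were those with the largest KO-minus-WT differences at 4 weeks. Nearest to Anxa5 were the tetraspanin Cd9 (0.33), the adhesion molecule Alcam (0.34) and Cfap300 (0.34), where Anxa5 itself deviated from its mean by 1.01 on average. Nearest to Anxa2 were the actin-binding Tagln2 (0.28), Anxa5 (0.38) and the actin-sequestering Tmsb4x (0.40), beside an average deviation of 1.07 for Anxa2. Nearest to S100a11 were Anxa2 (0.41), Tagln2 (0.56) and the actin crosslinker Flna (0.57), beside 1.39 for S100a11. These values describe all 20 arrays together, group differences included.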

How the data were processed

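The authors deposited log2 signals made with RMA in Affymetrix Expression Console, per the submitters' processing notes, with versions not given in the sources used here. They were used without further scaling. The lowest value was 2.32 and the highest 19.85. On each array 254 to 288 features exceeded 16, the scanner's ceiling on this scale, for a reason the sources used here do not give, so differences may be stretched. A single symbol was given for 19572 of 22206 features, and the feature with the highest mean was kept per symbol (19505 genes). Array medians ran from 5.42 to 5.58.

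The 4 group means over 20 arrays were fitted in R 4.3.3 with limma 3.58.1 (16 residual degrees of freedom), with Benjamini-Hochberg adjustment over all genes and a call at 0.05. Exact permutation tests were two-sided. The background level was the 95th percentile of group means of 1410 olfactory and vomeronasal receptor genes, 5.01 to 5.20. A difference against a group not above it is stated as at least the difference from that level. Limma p-values rest on a single spread per gene, shared by the 4 groups and moderated over all genes. S100a11 thus had an SE of 0.55 at both ages, though its SD in KO was 1.61 at 8 weeks and 0.71 at 4 weeks. Exact permutation p-values rest on the arrays of the groups compared. The array number limits the precision.

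The members and lists were chosen with earlier results of these data known. All members were named. Of each list other than markers, every called gene was named, as were genes whose role bears on a member. Of the marker lists some genes were named. The lists named 171 genes, of which 157 had a feature; the other 14 are not analysed here. Neutrophil, lymphocyte, endothelial and mesothelial markers were also counted. The motif letters were chosen after the results were known. The model was tested on simulated data. Alternatives were equal array medians, repeated quantile normalization, removal of the dimmest 25% of genes, only the groups compared, a trended and robust prior, array weights, the replicate number as a block, each array left out, and, chosen after seeing the data, the 3 muscle arrays left out. Deviations from the group means of same-numbered WT and KO arrays correlated at -0.15 to 0.48 at 4 weeks and -0.18 to 0.14 at 8 weeks. The value of 0.48 was that of replicate 4, where both arrays carried muscle transcripts. The numbers were not taken as pairs.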

Additional observations from a re-analysis of the deposited data

Results flagged for a closer look

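In WT liver at 4 weeks, replicate 4 stood apart for Anxa2, at 7.98, where the nearest of the other 4 arrays read 7.08. The gap was 0.818 of the range of the group, above the limit of 0.71 for 5 values. This array also carried skeletal muscle transcripts (Acta1 15.89), and their part in the value was not tested. It was the 1 such value in 40 gene-and-group sets, and chance alone flags about 1 set in 20.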

How the results depend on the processing

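Of the members called at 4 weeks, Anxa5 kept its call under all 18 alternatives, and of those called at 8 weeks Anxa2, Anxa3, Anxa5 and S100a11 did under all 17. The count at 4 weeks was 3 of 10 as reported, 5 with array weights, and from 1 to 3 with each array left out. For the change of the KO effect between ages it was 0, and it was 2 with array weights, 1 without the muscle arrays, and 0 to 2 with each array left out. With age in WT it was 2, and 4 when only the groups compared were fitted. With age in KO it was 1, and 0 when only the groups compared were fitted, 2 with array weights, and 0 to 2 with each array left out. The direction turned for differences that were not called: Anxa6 at 4 weeks with repeated quantile normalization (0.022), Anxa6 (-0.056) and Anxa7 (-0.082) at 8 weeks with equal medians, Anxa7 at 8 weeks with array weights (-0.051), S100a10 with age in WT with equal medians (0.02) and repeated quantile normalization (0.0097), and Anxa6 with age in KO without the muscle arrays (0.031). With each array left out these and others ran through 0: Anxa6 from -0.17 to 0.0015 at 4 weeks, -0.0935 to 0.18 at 8 weeks, -0.0295 to 0.24 between the ages and -0.15 to 0.0305 with age in KO, Anxa7 from -0.14 to 0.27 at 8 weeks, S100a10 from -0.18 to 0.084 with age in WT, and with age in KO Anxa2 from -0.47 to 0.13 and S100a11 from -0.043 to 1.08. The cause was not tested. Equal medians moved the median of all genes at 8 weeks from -0.036 to -0.15. With the replicate block, the members called were 3 at 4 weeks, 5 at 8 weeks, 0 between the ages, 2 with age in WT and 1 with age in KO, and over all genes 1804 were called at 4 weeks and 1170 at 8 weeks. With 5 arrays per group, small differences were not detectable.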

Other observations

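Markers of cell types outside the bile duct, macrophage and stellate lists changed in few members. At 4 weeks, 1 of 9 measured lymphocyte markers was higher and 1 of 10 endothelial markers was lower in KO, and none of 6 mesothelial markers was called. At 8 weeks, 1 of 9 lymphocyte markers was lower, 1 of 10 endothelial markers was higher and 1 of 6 mesothelial markers was higher. In WT with age, 4 of 10 stellate, 4 of 10 endothelial and 4 of 12 macrophage markers, 1 of 9 neutrophil markers and 1 of 6 mesothelial markers were lower, beside the lower Anxa1 and Anxa2, and 1 macrophage and 1 lymphocyte marker were higher. Capns1, the small subunit of the calpain proteases, which act in membrane repair, was higher at 8 than at 4 weeks in WT (0.64, limma adjusted p = 0.00887) and in KO (0.75, limma adjusted p = 0.00165), and was not called between KO and WT. S100a1 was higher at 8 than at 4 weeks in KO by 0.91 (limma adjusted p = 0.00628), without overlap. Further genes of the lists other than markers were called by limma. In WT with age, Axl and Stab2 were lower. In KO with age, Anxa13, Gas6, Itgb5, Myof, Plat, Pros1 and S100a3 were higher and Timd4 was lower. The KO-minus-WT difference was higher at 8 than at 4 weeks for Gas6, Mfge8, Itgb5, Plat and Stab2. Without the 3 muscle arrays the calls of S100a3 and Mfge8 were lost, and S100a3 was not above background in any group.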
